A study of Sus scrofa with 4 samples.

Results

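The genes described here encode the fibroblast growth factor (FGF), WNT, epidermal growth factor (EGF) and insulin-like growth factor (IGF) signalling proteins of porcine (Sus scrofa) blastocysts. They were chosen by symbol in the array's probe-to-gene annotation: FGF ligands and symbols beginning with FGFR, WNT ligands, the FZD receptors with LRP5 and LRP6, EGF with EGFR and ERBB2 to ERBB4, IGF1 and IGF1R, IGFBP1 to IGFBP7, and SPRY1 to SPRY4. The rule found 60 genes of the 11938 named on the array, read by 82 of its 43794 probes. EGFR, IGFBP2, WNT3A and WNT5A had no probe named here. The series compared blastocysts from cumulus-oocyte complexes (an oocyte within its cumulus cells) that matured together with porcine luteal cells, the coculture group, with blastocysts from complexes matured as control. Each of 4 two-colour arrays, named biological replicates 1 to 4, carried 1 sample of each group. Coculture RNA was in Cy5 on replicates 1 and 2 and in Cy3 on replicates 3 and 4. The design text gives 4 pools of 10 blastocysts from day 7 and day 8, without tying a pool to a day or saying if the 4 pools are per group. How pools relate to animals or culture runs is not given, so p-values measure only the spread between these samples, which may be technical.

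FGF ligands bind FGF receptor tyrosine kinases and start the RAS-ERK cascade, which Sprouty proteins restrain. In the mouse blastocyst, FGF4 from the epiblast directs neighbouring inner cells to become primitive endoderm. WNT ligands bind frizzled receptors with LRP5 or LRP6 as co-receptors and, in the canonical branch, stabilise beta-catenin. EGF acts through EGFR and its ERBB relatives, and IGF1 through IGF1R, both feeding the ERK and PI3K cascades. IGF-binding proteins hold IGFs in solution and control their access to the receptor. EGF and IGF1 are common additions to oocyte maturation and embryo culture media.

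No FGF, WNT, EGF or IGF signalling gene passed the test of coculture against control. Among genes measured in both groups, FGFR4 and IGFBP6 had the lowest fitted ratios and FGFR2 the highest, and none passed. The 25 probes bright enough to test, 30.5% of the 82 against 35.7% of all probes, represented 21 of the 60 genes. Of these 25, 0 had an adjusted p under 0.05 in limma, where the smallest adjusted p was 0.629. At an unadjusted p under 0.05 limma had 4 of the 25 probes, 1 higher and 3 lower in coculture, against a background of 7.84% of the 15631 probes tested. Ratios had 1 sign on all 4 arrays for 6 of the 25, 2 higher and 4 lower, against a background of 13.2%. These counts hold probes that entered the test only through the group in which they were above the detection limit: LRP5 among the 3, and LRP5, WNT1 and WNT4 among the 4 of 1 sign that were lower, all through control. Among the 17 probes that exceeded the limit on 2 or more arrays of both groups, limma had 3 at an unadjusted p under 0.05, 1 higher (FGFR2) and 2 lower (FGFR4 and IGFBP6), against 7.27% of such probes, and 0 at an adjusted p under 0.05. Of these 17, 2 were higher and 1 was lower on all 4 arrays, against 12.8%. The count of 4 rests on few probes and on the processing: under the other settings tried it was 1 to 7, with 1 without replicate 1 and 1 without replicate 2. The 7 came from a fit with no filter, which also took in probes too dim for the reported test. It added FZD10, IGFBP4 and WNT16, which are not among the 25. Filters change the number of probes tested, so counts under other filters are not out of 25. A log2 ratio here is coculture over control, so that 1 means a doubled and -1 a halved signal. The median fitted log2 ratio of the 25 probes was 0.021, against 0.0017 over all tested probes, and 13 of the 25 lay above 0, against a background of 50.3%.

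**Figure D1:**
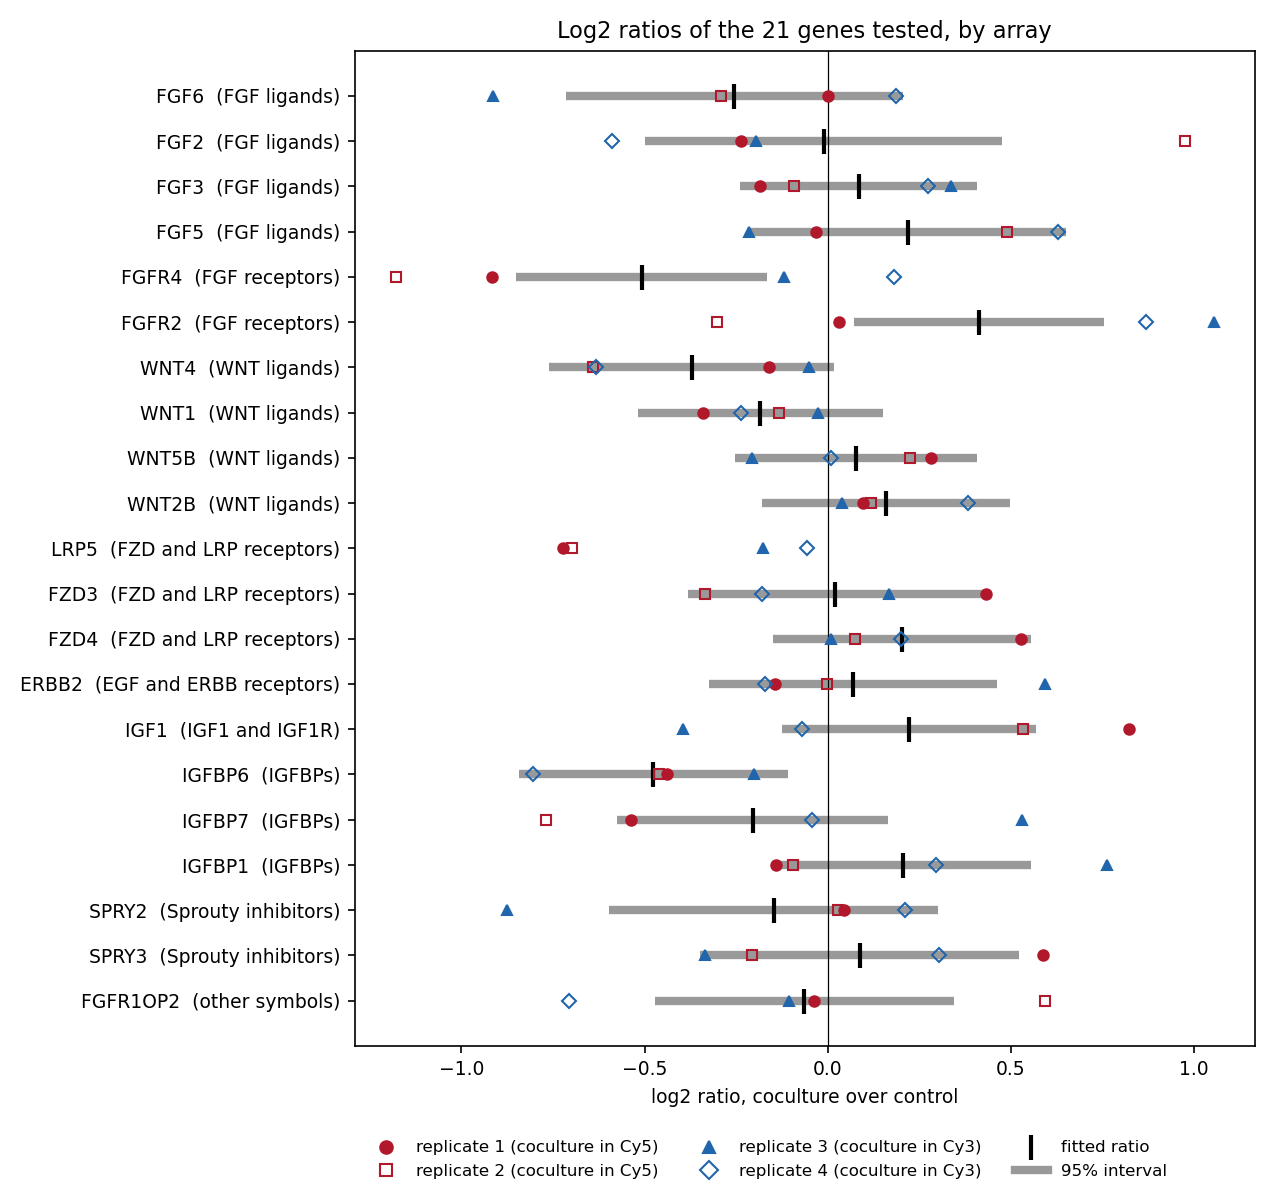
Log2 ratios of coculture over control (x axis) for the brightest tested probe of each of the 21 genes, ordered by role. Points are the 4 arrays, black ticks the limma fit and grey bars its 95% interval. LRP5, above the limit on no coculture array, has points only. The intervals of FGFR2, FGFR4 and IGFBP6 leave out 0, and their limma adjusted p was 0.629.

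The samples carried blastocyst markers. All 7 trophectoderm markers, of the outer layer, exceeded the detection limit, 6 of them on all 4 coculture arrays and 7 on all 4 control arrays. The log2 of their summed signal, most of it from KRT8 and KRT18, which were saturated in some channels, was 18.16 to 18.48 in coculture and 18.20 to 18.41 in control. Fitted ratios were below 0 for 5 of the 7 and above 0 for KRT8 (0.074) and KRT18 (0.082). GATA2, named after its values were seen, was lower in coculture on all 4 arrays without overlap, at -0.48 (limma adjusted p = 0.63). Over all tested probes, 50.3% lay above 0 and 1.52% did not overlap. The part of that layer in the values of the signalling genes was not tested. Of inner cell mass markers POU5F1 and LIN28 were detected on every array, SOX2 on 1 array per group, SALL4 and KLF4 on none, and NANOG had no probe named here. Of 11 cumulus, granulosa and luteal markers with a probe, 1 exceeded the limit on all 4 coculture arrays and 0 on all 4 control arrays. The log2 of their summed signal was 12.40 to 12.59 in coculture and 12.31 to 12.47 in control, and FSHR, INHBA and PTX3 never exceeded the limit. Only 4 of the 11 were bright enough to test, so this sum is largely signal near background. It also rises with the number of probes summed, so sums of different marker lists are not comparable. Markers of oocytes, fibroblasts and leukocytes with a probe numbered 7, 5 and 4. In each of these 3 lists, 1 marker exceeded the limit on all 4 coculture arrays and 1 on all 4 control arrays. Those that never exceeded it numbered 2, 1 and 2. In pooled blastocysts, fewer cells of a type and less RNA per cell cannot be told apart.

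Detection of the signalling probes was near that of the array as a whole, and fewer of them were bright throughout. Each channel had its own detection limit, 2 SD over the mean of its 153 negative-control spots in median pixel intensity. Of the 82 probes, 37 exceeded it in no channel, which is 45.1%, against 52.1% of all probes and 47.8% of those with a symbol. In all 8 channels it was exceeded by 7 of the 82, or 8.54%, against 16.4% of all probes and 20.2% of those with a symbol. These 7 were both tested probes of FGFR4, both of IGFBP7, and 1 each of FGFR2, FZD4 and IGFBP1. No FGF or WNT ligand and no probe of ERBB2, IGF1 or the Sprouty genes was among them.

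Detection followed the dye. On replicates 1 to 4 the coculture channel had 16, 14, 22 and 25 of the 82 probes above the limit, and the control channel had 23, 32, 14 and 14. The higher number of each pair was always in Cy3. The same held over all probes, with 29.2%, 25.6%, 34.8% and 29.8% in coculture against 33.9%, 34.8%, 23.5% and 23.9% in control. A gene seen only in 1 group on 2 arrays can therefore have been seen only in 1 dye. FGF3, WNT1 and WNT4 each exceeded the limit in the same 3 channels, coculture on replicate 3 and control on replicates 1 and 2, all in Cy3. A probe entered the test by exceeding the limit on 2 or more arrays of either group, and 8 of the 25 did so in 1 group alone. Of these, 7 passed through control (FGF3, FGF6, WNT1, WNT4, FZD3, LRP5 and the dimmer probe of IGF1) and 1 through coculture, the brighter probe of IGF1.

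**Figure D2:**
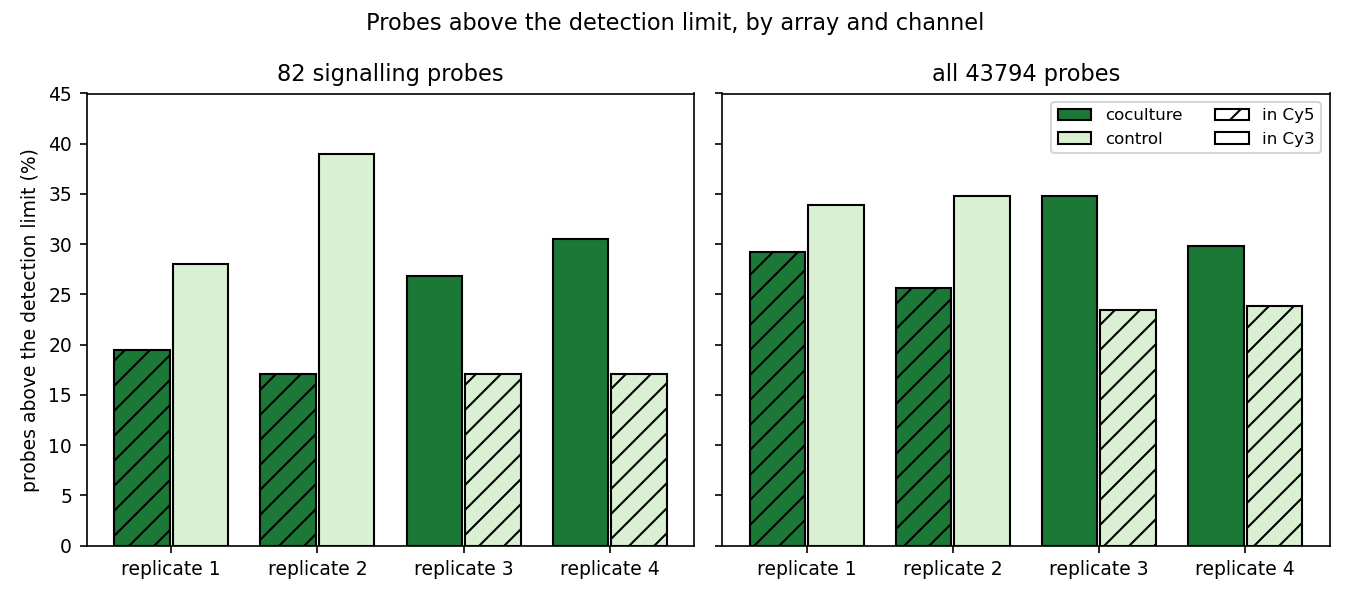
Percentage of probes above the detection limit (y axis) on each array for the 82 signalling probes (left) and all 43794 probes (right). Dark bars are coculture, light bars control, and hatching marks Cy5. The Cy3 bar is the taller of each pair on all 4 arrays, whichever group it holds.

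Among 18 genes grouped as FGF ligands by symbol alone, 4 were tested, 7 others exceeded the limit at least once, and 7 never did. None had an unadjusted p under 0.05 by limma. FGF4, the epiblast ligand of the mouse, exceeded the limit in 1 coculture channel and in no control channel. FGF9 did so in 1 channel of each group, and neither was tested. FGF1, FGF7, FGF8, FGF10 and FGF16 were likewise above the limit in no more than 1 channel per group, and FGF14, FGF17 to FGF21 and FGF23 in none. FGF2, basic FGF, a pluripotency factor of stem cell culture, had log2 signals of 9.04, 9.67, 9.05 and 8.72 in coculture on replicates 1 to 4, against 9.28, 8.69, 9.24 and 9.31 in control. Coculture was the higher on replicate 2 alone, at a log2 ratio of 0.97, and the groups overlapped. The fitted log2 ratio of FGF2 was -0.012 (95% interval -0.50 to 0.48; limma adjusted p = 0.994).

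FGF5, which in mice marks the epiblast after implantation, had log2 signals of 9.10, 9.32, 8.94 and 9.20 in coculture, against 9.13, 8.83, 9.16 and 8.57 in control. Its log2 ratio was 0.22 (95% interval -0.21 to 0.65; limma adjusted p = 0.809). Coculture was higher on replicates 2 and 4 only, and the groups overlapped. FGF6, known from skeletal muscle, had log2 ratios of 0.0013, -0.29, -0.91 and 0.18 on replicates 1 to 4 and a fit of -0.26 (-0.71 to 0.20; limma adjusted p = 0.786). Without replicate 3 the fit was 0.02. FGF3, a ligand of early inner ear development, had log2 ratios of -0.18, -0.092, 0.34 and 0.27. Its fit was 0.084 (-0.24 to 0.41; limma adjusted p = 0.911), with opposite signs in the dye orientations.

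The FGF receptors held the lowest and the highest fitted ratio of all the signalling genes. FGFR4, a receptor known in adult liver for the bile acid hormone FGF19, had log2 signals by its brighter probe of 9.87, 10.12, 10.26 and 11.53 in coculture, against 10.79, 11.30, 10.38 and 11.35 in control. Coculture was lower on replicates 1 and 2, slightly lower on 3 and higher on 4, and the groups overlapped. The mean log2 signal was 10.45 ± 0.74 in coculture and 10.96 ± 0.46 in control (SD, n = 4 each). In the fit, FGFR4 had a log2 ratio of -0.51 (95% interval -0.85 to -0.17), a fold of 0.703, with a limma adjusted p of 0.629. It averaged -1.05 on replicates 1 and 2 and 0.031 on replicates 3 and 4. The dye term of the fit takes up that split, so the interval leaves it out. The unadjusted p by limma was 0.0091 with that term and 0.06 without it.

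The other tested probe of FGFR4 did not show that difference. Its log2 signals were 9.31, 9.45, 9.20 and 9.25 in coculture, against 8.99, 9.59, 9.29 and 9.09 in control. Its fit was 0.063 (95% interval -0.29 to 0.42; limma adjusted p = 0.946), and both probes exceeded the limit in all 8 channels. Among primitive endoderm markers, APOA1, a lipoprotein component made by embryonic endoderm, had log2 ratios of -2.15, -2.54, -0.029 and 0.39 (limma adjusted p = 0.629) and GATA6 had 0.63, -0.20, 0.37 and 0.55. Like the brighter FGFR4 probe, APOA1 was lower on replicates 1 and 2 than on 3 and 4, which is also the split by dye orientation, and GATA6 was not. APOA1 was chosen after its values were seen. The log2 of the summed signal of the 4 primitive endoderm markers with a probe was 12.39 to 13.31 in coculture and 12.67 to 13.37 in control. HNF4A exceeded the limit in 1 control channel and PDGFRA in none. The part of that layer in the FGFR4 values was not tested.

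FGFR2, a receptor of trophectoderm FGF signalling in the mouse, lay higher in coculture by its brighter probe. Its log2 signals were 10.82, 10.07, 11.27 and 10.66 in coculture, against 10.79, 10.37, 10.22 and 9.79 in control. Coculture was clearly higher on replicates 3 and 4 and not on 1 and 2, and the groups overlapped. The mean log2 signal was 10.70 ± 0.50 in coculture and 10.29 ± 0.41 in control (SD, n = 4 each). The fitted log2 ratio of FGFR2 was 0.41 (95% interval 0.072 to 0.75), a fold of 1.33, with a limma adjusted p of 0.629. It averaged -0.14 on replicates 1 and 2 and 0.96 on replicates 3 and 4. Here too the dye term takes up the split, with an unadjusted p by limma of 0.024 with that term and 0.12 without it.

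The other tested FGFR2 probe had log2 signals of 9.25, 8.49, 9.53 and 9.22 in coculture, against 9.32, 9.20, 9.11 and 8.93 in control. Its fitted ratio was -0.02 (95% interval -0.39 to 0.35; limma adjusted p = 0.988). The log2 ratios stood in the same array order for both FGFR2 probes, with replicate 3 highest, 4 next, then 1, and 2 lowest. The remaining FGFR2 probes exceeded the limit in 1 channel at most. FGFR1, the main receptor of the mouse epiblast, was not tested: 1 of its 3 probes exceeded the limit in 1 control channel, and the others in none. FGFR3 likewise exceeded it in 1 control channel.

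**Figure D3:**
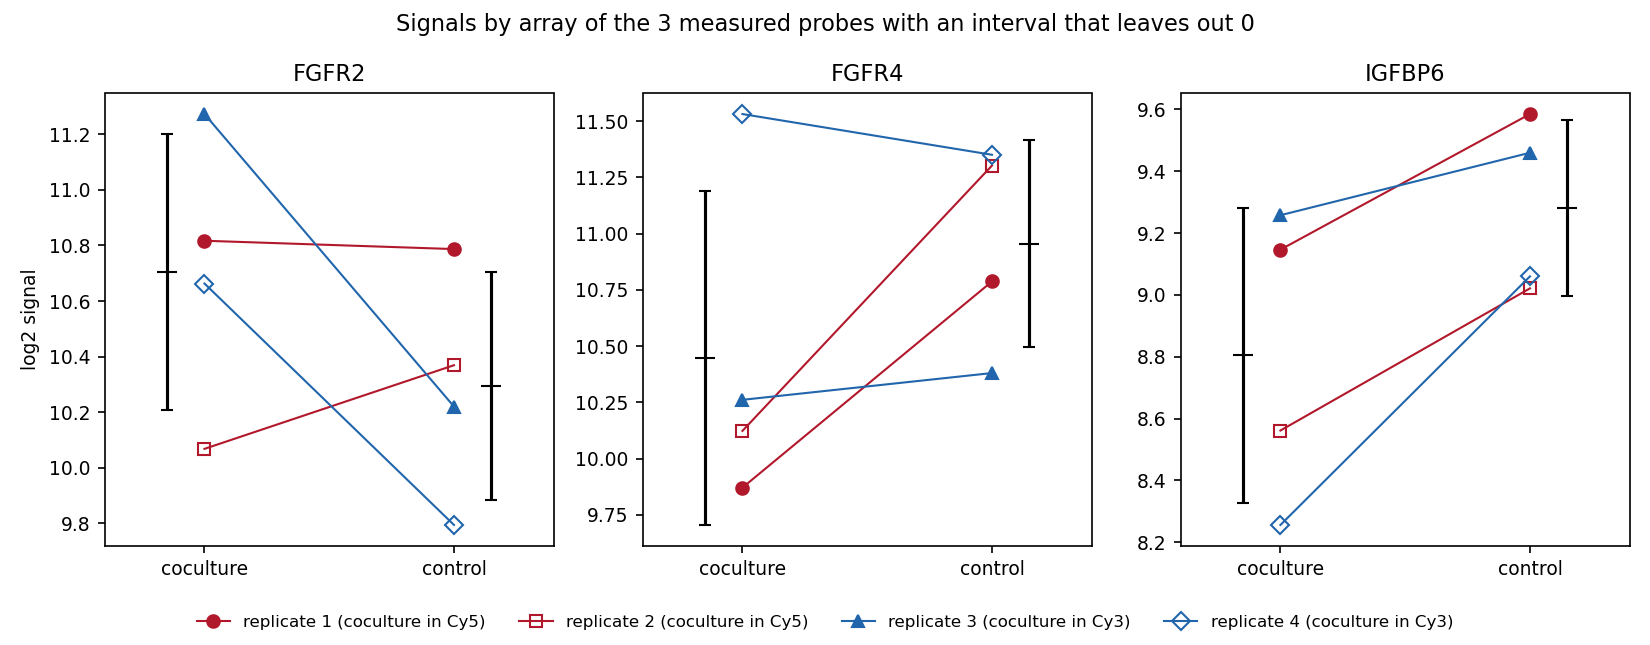
Log2 signal after normalization (y axis, a separate scale per gene) of the brighter or only tested probes of FGFR2, FGFR4 and IGFBP6 in coculture (left) and control (right). Lines join the samples of 1 array, and black marks show mean and SD (n = 4). All 4 lines run the same way for IGFBP6, but not for FGFR2 and FGFR4. IGFBP6 was above the detection limit in neither channel on replicate 4 and not in coculture on replicate 2.

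Of 12 WNT ligands, 4 were tested. WNT2, WNT8B and WNT16 exceeded the limit in no more than 1 channel per group, and WNT3, WNT7A, WNT9B, WNT10B and WNT11 in none. WNT4, a ligand of kidney and ovary development, had log2 signals of 8.72, 8.28, 8.84 and 8.05 in coculture, against 8.88, 8.92, 8.89 and 8.68 in control. Coculture was the lower on each array, by little on replicates 1 and 3, and the groups overlapped. WNT4 had a fitted log2 ratio of -0.37 (95% interval -0.76 to 0.018; limma adjusted p = 0.65). WNT1, known from midbrain patterning, had log2 ratios of -0.34, -0.13, -0.026 and -0.24, and a fit of -0.18 (-0.52 to 0.15; limma adjusted p = 0.788). It was also below 0 on all 4 arrays, and its ratios had the smallest SD of the 25 probes, 0.14. WNT4 and WNT1 were each above the limit on 1 coculture array and on control replicates 1 and 2. Both were thus tested through control alone, where they were high, which favours ratios below 0.

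WNT2B pointed the other way on all 4 arrays. Its log2 signals were 8.93, 8.93, 8.83 and 9.18 in coculture, against 8.83, 8.81, 8.79 and 8.80 in control. It was the only 1 of the 25 probes whose groups did not overlap, and 1.52% of all tested probes did not overlap. The gap between its groups was 0.00098 on the log2 scale. In the fit, WNT2B stood at a log2 ratio of 0.16 (95% interval -0.18 to 0.50; limma adjusted p = 0.823). WNT5B, the remaining tested ligand, stood at 0.077 (-0.25 to 0.41).

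Among the WNT receptors, 3 of 8 genes were tested and 3 never exceeded the limit. LRP5 had log2 signals of 8.41, 8.33, 8.45 and 8.68 in coculture, against 9.14, 9.03, 8.62 and 8.73 in control. Coculture was the lower on all 4 arrays, most on replicates 1 and 2, and the groups overlapped by the coculture value of replicate 4. LRP5 was above the limit in no coculture channel and in 2 control channels, replicates 1 and 2, both in Cy3, so it was tested only because of control. The coculture signal was not well above background, so its ratio is uncertain. Mean log2 signals were 8.47 ± 0.15 in coculture and 8.88 ± 0.24 in control (SD, n = 4 each). The difference of these measured means was 1.33-fold lower in coculture (limma adjusted p = 0.629). It is not a bound, and the true difference may be smaller or larger. With mean in place of median pixel intensities the log2 ratio was 0.011, so the direction of LRP5 did not hold. The other LRP5 probes and all 3 of LRP6, the closest relative of LRP5, never exceeded the limit.

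FZD4, which also binds the retinal vessel factor norrin, was detected in all 8 channels. Its log2 signals were 9.28, 9.14, 9.16 and 9.33 in coculture, against 8.75, 9.07, 9.15 and 9.13 in control. Coculture was the higher on every array, by only 0.0097 on replicate 3, and the groups overlapped. The fitted log2 ratio of FZD4 was 0.20 (95% interval -0.15 to 0.55; limma adjusted p = 0.773), and -0.031 with mean pixel intensities. FZD3, an axon guidance receptor, had log2 ratios of 0.43, -0.34, 0.17 and -0.18 and a fit of 0.021 (-0.38 to 0.42; limma adjusted p = 0.989). FZD5 and FZD6 exceeded the limit in 1 coculture channel each, and FZD7, FZD10 and the other FZD3 probe in none.

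Of the EGF family, ERBB2 was tested, the co-receptor that binds no ligand of its own. Its log2 signals were 8.63, 8.94, 8.86 and 8.90 in coculture, against 8.77, 8.94, 8.27 and 9.07 in control. Replicate 3 alone was higher in coculture, and the groups overlapped. ERBB2 had a fitted log2 ratio of 0.068 (95% interval -0.32 to 0.46; limma adjusted p = 0.948), and -0.12 without replicate 3. EGF and both probes of ERBB4 never exceeded the limit, and ERBB3 did so in 1 coculture channel.

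IGF1 had 2 tested probes, both near the limit. The brighter had log2 signals of 8.88, 9.17, 8.62 and 9.25 in coculture, against 8.06, 8.64, 9.02 and 9.32 in control. Coculture was higher on replicates 1 and 2 and lower on 3 and 4, so the sign followed the dye orientation, and the groups overlapped. Its fitted log2 ratio was 0.22 (95% interval -0.12 to 0.57; limma adjusted p = 0.739). The dimmer IGF1 probe, above the limit in no coculture channel and in 2 control channels, had ratios of both signs, with mean log2 signals of 8.76 in coculture and 8.83 in control (limma adjusted p = 0.959). The third IGF1 probe exceeded the limit in 1 channel per group. The receptor IGF1R exceeded the limit in 1 control channel and was not tested.

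IGFBP6, a binding protein that prefers IGF2 over IGF1, was lower in coculture on all 4 arrays. Its log2 signals were 9.15, 8.56, 9.26 and 8.26 in coculture, against 9.59, 9.02, 9.46 and 9.06 in control. Coculture was above the limit on replicates 1 and 3 only, and control on replicates 1 to 3. On replicate 4, with a log2 ratio of -0.80, neither channel was above it. The groups overlapped because replicates 1 and 3 were the brighter in both. The mean log2 signal was 8.81 ± 0.48 in coculture and 9.28 ± 0.28 in control (SD, n = 4 each). IGFBP6 had a fitted log2 ratio of -0.48 (95% interval -0.84 to -0.11), a fold of 0.719, with a limma adjusted p of 0.629. It averaged -0.45 on replicates 1 and 2 and -0.50 on replicates 3 and 4. Of the 4 probes with an unadjusted p under 0.05 by limma, IGFBP6 had the most even ratios between the dye orientations. With mean pixel intensities, however, it stood at -0.065.

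IGFBP7, a secreted protein with low affinity for IGFs, had 2 tested probes that were above the limit in all 8 channels. The brighter had log2 signals of 10.98, 10.50, 11.11 and 10.24 in coculture, against 11.52, 11.27, 10.58 and 10.29 in control. Its fitted log2 ratio was -0.21 (95% interval -0.57 to 0.16; limma adjusted p = 0.786). The dimmer had 9.72, 9.47, 9.76 and 9.49 in coculture, against 9.57, 9.78, 9.03 and 9.14 in control, with a fit of 0.23 (-0.14 to 0.59; limma adjusted p = 0.753). Replicate 2 was the lowest and replicate 3 the highest in the log2 ratios of both IGFBP7 probes, and for both the groups overlapped, while the fits had opposite signs. IGFBP1, a binding protein of liver and decidua, had log2 ratios of -0.14, -0.10, 0.76 and 0.30, and a fit of 0.21 (-0.14 to 0.56; limma adjusted p = 0.768). IGFBP4 exceeded the limit in 1 control channel, and IGFBP3, IGFBP5 and the untested probes of IGFBP6 and IGFBP7 in none.

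Of the Sprouty inhibitors, SPRY2 and SPRY3 were tested. SPRY2 had log2 signals of 8.87, 8.86, 8.06 and 9.01 in coculture, against 8.83, 8.83, 8.94 and 8.80 in control. Coculture was the higher on 3 arrays and lower on replicate 3, and the groups overlapped. The fitted log2 ratio of SPRY2 was -0.15 (95% interval -0.60 to 0.30; limma adjusted p = 0.88), and 0.12 without replicate 3. SPRY3 had log2 ratios of 0.59, -0.21, -0.33 and 0.30, and a fit of 0.087 (-0.35 to 0.52; limma adjusted p = 0.936). SPRY1 exceeded the limit in 1 control channel and SPRY4 in none. The symbol rule also took in FGFR1OP and FGFR1OP2, named after fusions with FGFR1 and not receptors. FGFR1OP2 had log2 ratios of -0.036, 0.59, -0.11 and -0.71, and a fit of -0.064 (-0.47 to 0.34; limma adjusted p = 0.951), and FGFR1OP never exceeded the limit.

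In each gene with 2 tested probes, the probes had fitted ratios of opposite sign. This held for 4 of 4 genes, FGFR2, FGFR4, IGF1 and IGFBP7, and for 41.7% of the 1237 genes of the whole array with at least 2 tested probes. The median gap between the 2 brightest probes was 0.43 on the log2 scale, against 0.16 over all such genes. No test of that gap was made. The annotation used here does not say which exons the probes read. The dimmer IGF1 probe was above the limit on no coculture array, so the sign of its difference is not a measured one. The mean over both probes was 0.20 for FGFR2, -0.22 for FGFR4, 0.076 for IGF1 and 0.01 for IGFBP7.

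**Figure D4:**
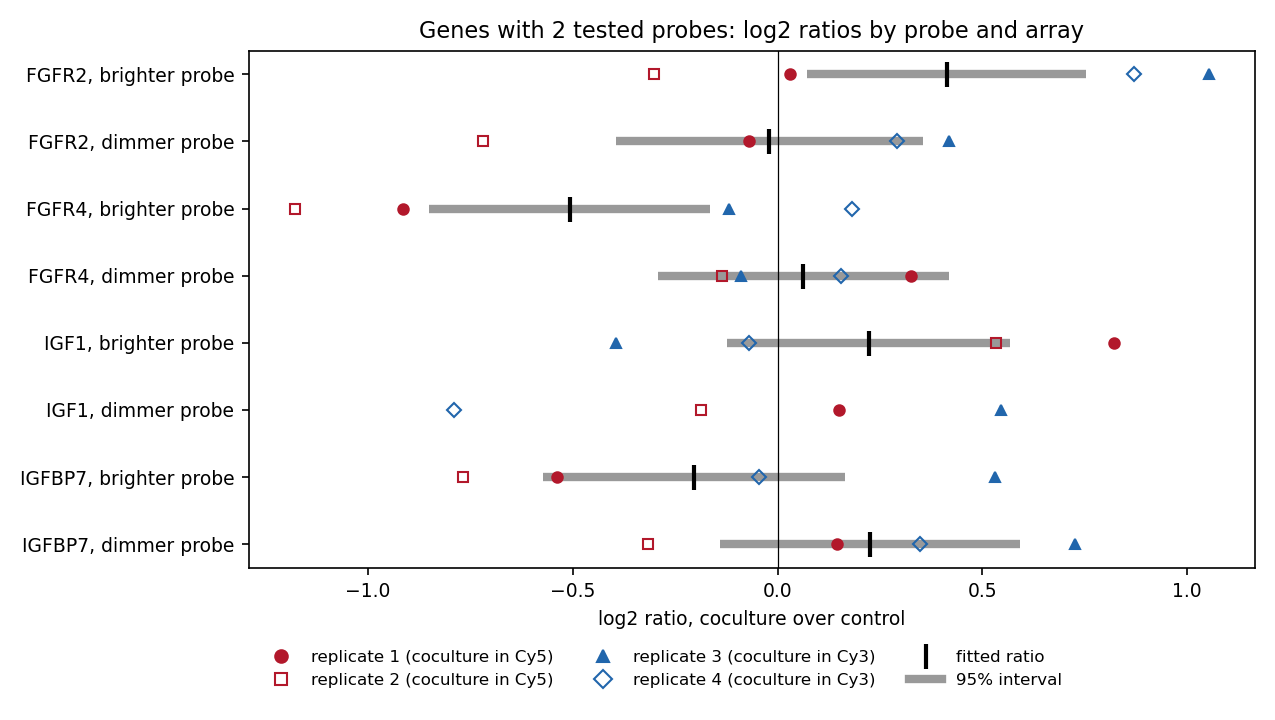
Log2 ratios of coculture over control (x axis) for both tested probes of FGFR2, FGFR4, IGF1 and IGFBP7. Points are the 4 arrays, black ticks the limma fit and grey bars its 95% interval. The dimmer IGF1 probe, above the limit on no coculture array, has points only. The fitted ratios of the probes of a gene lie on opposite sides of 0 for FGFR2, FGFR4 and IGFBP7.

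Opposite signs between the dye orientations were about as frequent among these probes as across the array. The mean ratio of replicates 1 and 2 and that of replicates 3 and 4 had opposite signs for 15 of the 25 probes, or 60%, against a background of 54.7%. The dye term of the fit was proportional to the difference between orientations. For this term, 0 of the 25 and 0 of all tested probes had an adjusted p under 0.05 in limma. In that term, an effect of the dye cannot be told apart from a difference between the samples of replicates 1 and 2 and those of 3 and 4. At an unadjusted p under 0.05 for that term limma had 5 of the 25, against a background of 11.6%: both probes of FGFR2 and the brighter probes of FGFR4, IGF1 and IGFBP7. The SD of the ratios over the 4 arrays ran from 0.14 for WNT1 to 0.68 for FGF2, with a median of 0.42, against 0.34 over all tested probes. The 95% interval reached a median of 0.37 to either side of the fit. Correlations of the ratios over the 25 probes, which share arrays and normalization, were 0.488 between replicates 1 and 2, against 0.204 over all tested probes, and 0.167 between replicates 3 and 4, against 0.167. Between arrays of opposite dye they ran from -0.224 to 0.166, against -0.191 to -0.0275 over all tested probes.

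The partners of these pathways gave no call either: 0 genes of any of the 4 partner lists had an adjusted p under 0.05 in limma. Of 30 listed genes of the FGF and ERK cascade, 21 had a probe named here and 12 were tested. At an unadjusted p under 0.05 limma had 1 higher and 0 lower, and the median log2 ratio was -0.065. The backgrounds over all tested probes were 4.15% higher and 3.7% lower. MYC, a transcription factor induced by growth signals, stood at 0.58 (95% interval 0.16 to 0.99; limma adjusted p = 0.629), with array values of 0.32, 1.21, 0.32 and 0.47. RPS6KA3, an ERK-activated kinase, stood at -0.28 (-0.61 to 0.056), and was above the limit on 1 coculture and 2 control arrays, so it was tested through control alone.

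Of the 47 WNT pathway partners, 32 had a probe named here and 12 were tested. At an unadjusted p under 0.05 limma had 1 of these 12 with a positive ratio and 0 with a negative one, around a median of 0.013. TCF7L1, a repressor of WNT target genes, stood at 0.39 (95% interval 0.067 to 0.72; limma adjusted p = 0.629) and was above 0 on all 4 arrays. APC, of the complex that degrades beta-catenin, stood at 0.89 (-0.083 to 1.86), with array values of 0.031, 0.12 and 0.11 on replicates 1 to 3 and 3.30 on replicate 4. CTNNB1, which encodes beta-catenin, stood at -0.079.

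Of the 22 EGF family partners, 15 had a probe named here and 4 were tested, with 0 at an unadjusted p under 0.05 by limma. The median of the 4 was 0.18. ADAM10, a protease that sheds EGF family ligands, stood at -0.41 (95% interval -0.82 to 0.009; limma adjusted p = 0.635). CBLB, a ubiquitin ligase of activated receptors, stood at 0.31 (-0.013 to 0.64; limma adjusted p = 0.647), and was above the limit on 2 coculture arrays and 1 control array, so it was tested through coculture alone.

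Of the 33 IGF, insulin and PI3K partners, 25 had a probe named here and 12 were tested. At an unadjusted p under 0.05 limma had 0 of these 12 with a positive ratio and 1 with a negative one, around a median of 0.048. TSC2, an inhibitor of the growth kinase mTOR, stood at -0.66 (95% interval -1.13 to -0.19; limma adjusted p = 0.629), with array values of -0.058, -1.19, -0.49 and -0.91. It was above the limit on 1 coculture and 3 control arrays, so the only probe counted as lower in this list was tested through control, where it was high. IGF2R, the imprinted receptor that clears IGF2, stood at 0.18 (-0.16 to 0.51), with array values of -0.18, -0.43, 0.57 and 0.75, and was likewise tested through control alone.

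The 57 untested probes, of which none exceeded the limit on 2 arrays of 1 group, had log2 ratios on single arrays from -1.01 to 1.43. Their groups overlapped for 57 of 57, where 1.52% of all tested probes did not overlap. No share over all untested probes is given, so this count does not set these probes apart.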

How the data were processed

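RNA of blastocysts was amplified and labelled with Cy3 or Cy5 by the Universal Linkage System, per the labels' protocols. The deposited scanner tables hold median and mean pixel intensity and local background per spot and dye, on a linear scale, per the file headers. No scanner or image software is named. A log2 table from the authors was made with limma, per the submitters' processing notes. It holds Cy5 over Cy3 ratios in log2 for every array, since these correlated at 0.968 to 0.979 with ratios recomputed by background subtraction, loess and quantile normalization. Its column medians were -0.0133, -0.013, -0.000395 and -0.0167, and its exact centring stays unknown.

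Median intensities were background-corrected with normexp (offset 50) and normalized by loess within each array in limma 3.58.1 (R 4.3.3), giving control spots a weight of 0. Probes that the image quantification had left out, 74 to 150 per array, got no value. Ratios were fitted with lmFit and eBayes over all 15631 tested probes, with a dye intercept and a coculture term, leaving 2 residual and 6.04 prior degrees of freedom. Tested probes had a value on at least 3 arrays and exceeded the detection limit on at least 2 arrays of 1 group. P-values were adjusted by Benjamini-Hochberg. Loess centres each array, so a shift shared by most probes would not show. Channel signals were taken after Aquantile scaling. The number of arrays limits the precision. All 60 symbols were current in RefSeq annotation of assembly Sscrofa11.1, used for names only.

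A gene was represented by its tested probe of highest mean intensity. Values per array were given for the 3 genes of smallest p in each role group and for 23 fixed genes where tested, 7 of which were. The 2 genes of smallest p were named from each partner list. CTNNB1, APOA1, GATA2, GATA6 and WNT5B were named after their values were seen. The signalling genes, partner lists and markers were chosen with earlier results of these data known. The script was tested on simulated data. Alternatives were background, pixel summary, normalization, filter, dye term, variance trend, the authors' table, separate channels, probe averaging, leaving out each replicate and, chosen after seeing the data, a filter on both groups. No sequences are given, because the tables used here hold none.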

Additional observations from a re-analysis of the deposited data

Results flagged for a closer look

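The log2 ratio of SPRY2 on replicate 3 was -0.87, while the other 3 arrays lay between 0.029 and 0.21. Its gap to the nearest array took up more of the whole range than Dixon's 95% critical value for 4 samples. Of 20 genes examined in this way, 1 stood out, and chance gives about 1 in 20 groups. Without replicate 3 the fitted log2 ratio of SPRY2 was 0.124, and with mean pixel intensities over all 4 arrays 0.0498.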

How the results depend on the processing

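In each fit, limma called 0 probes at an adjusted p under 0.05. The count of signalling probes at an unadjusted p under 0.05, 4 in the reported fit, was 1 with mean pixel intensities (FGFR4), 7 with no filter, 2 with a stricter filter (FGFR2, FGFR4), 2 without the dye term (IGFBP6, LRP5), and 1 to 5 on leaving out 1 replicate, being 1 without replicate 1 (FGFR4) and 1 without replicate 2 (FGFR2). Over all probes it was 1226 of 15631, or 7.84%, in the reported fit. It was 2643 with no filter, 757 with a stricter filter, 813 without the dye term and 1898 with separate channels. On leaving out 1 replicate it was 609 (without replicate 2) to 1505. No share of the probes tested is given for these other settings, so they give no comparison with the signalling probes. Fewer or more probes tested accounts for part of the filter counts; the cause of the others was not tested. With probes above the limit on 2 or more arrays of both groups, an alternative chosen after seeing the data, the count was 3 of 17 signalling probes. Over all such probes it was 898 of 12351, or 7.27%. The median ratio of the signalling probes ran from -0.052 to 0.14.

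Mean pixel intensities turned the sign of 9 of 20 genes: FGF2 (0.214), FGF6 (0.0146), FGFR1OP2 (0.013), SPRY2 (0.0498) and LRP5 (0.0107) came out positive, and FZD4 (-0.0315), IGF1 (-0.0115), ERBB2 (-0.00969) and FZD3 (-0.0235) negative. FGF2 stood at 0.0013 without background correction, 0.00156 with subtraction, 0.0222 with quantile normalization and 0.0146 in the authors' deposited table. FZD3 stood at -0.00583, -0.0109 and -0.0166 without correction, with subtraction and in the authors' deposited table, and at -0.0484 with median centring. IGFBP7 stood at 0.0102 as the mean of its probes. On leaving out 1 replicate the ranges were -0.314 to 0.291 for FGF2, -0.222 to 0.0934 for FGFR1OP2, -0.111 to 0.285 for SPRY3, -0.171 to 0.212 for FZD3, -0.53 to 0.0196 for FGF6, -0.123 to 0.259 for ERBB2 and -0.419 to 0.124 for SPRY2. The cause was not tested. Mean pixel intensities brought 15 of the 20 genes over 1.5 times closer to 0, WNT4 to -0.0921, WNT1 to -0.0145, FGFR2 to 0.248 and FGFR4 to -0.324, and without replicate 4 FGF5 stood at 0.00688. Most probes lay near the negative controls, which limits what these arrays can show.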
